A study of Mus musculus with 48 samples.

Results

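The insulin-like growth factor (IGF) axis was followed in the aging mouse mammary gland through 10 genes: the ligands Igf1 and Igf2, the receptors Igf1r and Ghr, and the binding proteins Igfbp2, Igfbp3, Igfbp4, Igfbp5, Igfbp6 and Igfbp7. They were taken by gene symbol, 10 of the 55487 genes in the table, and each symbol stands on a single row. All 10 passed the filter on low values (at least 1 TPM in at least 3 libraries). RNA came from whole thoracic glands of mice with the activator MMTV-rtTA and 1 of 2 responders, tet-op-Esr1 (estrogen receptor alpha) or tet-op-CYP19A1 (aromatase, the enzyme that makes estrogens). The activator needs doxycycline and stands under a mammary tumour virus promoter that is used mainly in mammary epithelium. There were 16 groups of 3 libraries. In each model, called here Esr1 mice and CYP19A1 mice, glands were induced for 1 week at 12 or 18 months of age, for 6 or 12 months at 24 months, or for 18 months at 30 months, and uninduced glands came from mice of 12, 18 and 24 months. All groups carry the activator and a responder, and none of the groups analysed here had the drug without a responder or was uninduced at 30 months, so drug and transgene cannot be told apart. Libraries of a group are labelled as biological replicates, with no statement that each is a separate mouse, so a p-value rests on the variation among the libraries at hand.

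IGF1 and IGF2 are secreted growth factors that bind the receptor tyrosine kinase encoded by Igf1r, which signals through IRS adaptors, PI3 kinase and AKT. Growth hormone acts through its receptor, the product of Ghr, and through JAK2 and STAT5 it raises Igf1 transcription. In the mammary gland IGF1 made in the stroma supports ductal growth together with estrogen, and IGFBP5 is known from involution, when it accumulates in milk. The binding proteins hold IGFs in the circulation and in tissue, and proteases and stanniocalcins set how much ligand is released.

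Values are in TPM, the abundance unit of RSEM, which counts transcripts per length on a fixed library total, so levels can be compared between genes. Ribosomal RNA took more than 10% of TPM in 9 libraries, up to 67.2%, and the deposited TPM of every other gene are lowered there. Each library was therefore divided by a factor from genes measured in all libraries (0.315 to 1.41), and all levels below are such rescaled TPM. Of the 9 uninduced libraries in each model, 0 of the Esr1 mice and 4 of the CYP19A1 mice passed that 10% limit. Epithelial, adipocyte, stromal and endothelial markers were above 0 in every library. The summed level of 7 skeletal muscle markers ran from 198 to 49987. The Esr1 transcript, the targeted gene in 1 of the models, ran from 5.90 to 22.85 over all libraries and did not pass the test after induction (log2 change of -0.08 with a standard error (SE) of 0.17 over the 4 inductions of Esr1 mice, limma adjusted p = 0.915). In whole tissue, fewer cells of a type and less RNA per cell cannot be told apart.

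The most abundant member was Igfbp5, which encodes a binding protein that attaches to matrix, with a mean of 146 and a range of 64.9 to 307.5 over the 48 libraries. The gene lies on the minus strand of chromosome 1 (72857932 to 72874884, GRCm38, GENCODE M21), beside Igfbp2 on the plus strand (72824503 to 72852474). Ghr followed with a mean of 136 (60.9 to 276). Its gene spans 265733 bp of chromosome 15 (3317760 to 3583492, minus strand). Igfbp7, whose product binds IGFs weakly and is known from vessels, averaged 89.3 and had the lowest ratio of highest to lowest library of all members, with a range of 61.0 to 120.6. It lies on chromosome 5 (77349240 to 77408041, minus strand), where Polr2b on the opposite strand overlaps it. Igfbp4, encoding an inhibitory binding protein that the protease PAPP-A cleaves, averaged 84.4 (30.6 to 195) and lies on chromosome 11 (99041244 to 99054392, plus strand). The means of Igfbp7 and Igfbp4 differed by less than the spread of either gene.

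The other members were lower. Igfbp6, whose product prefers IGF2, averaged 36.0 (8.46 to 63.1) and lies on chromosome 15 (102144362 to 102149511, plus strand). The ligand Igf1 averaged 25.3 (13.4 to 51.7) from chromosome 10 (87858265 to 87937042, plus strand). Igfbp3, the main carrier of IGFs in serum, averaged 12.9 but ran from 2.51 to 72.1, and its gene lies on chromosome 11 (7206086 to 7213923, minus strand). Igf1r was at 7.35 (4.53 to 10.9) from chromosome 7 (67952827 to 68233668, plus strand). The second ligand, the imprinted gene Igf2, was at 3.10 (1.02 to 11.96) from the same chromosome (142650766 to 142666816, minus strand), so Igf1 was the more abundant ligand. Igfbp2 was lowest, with a mean of 2.22 and a range of 0.14 to 8.29, and reached 1 TPM as deposited in 33 libraries. The highest library was 59.2 times the lowest for Igfbp2 and 1.98 times the lowest for Igfbp7.

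**Figure D1:**
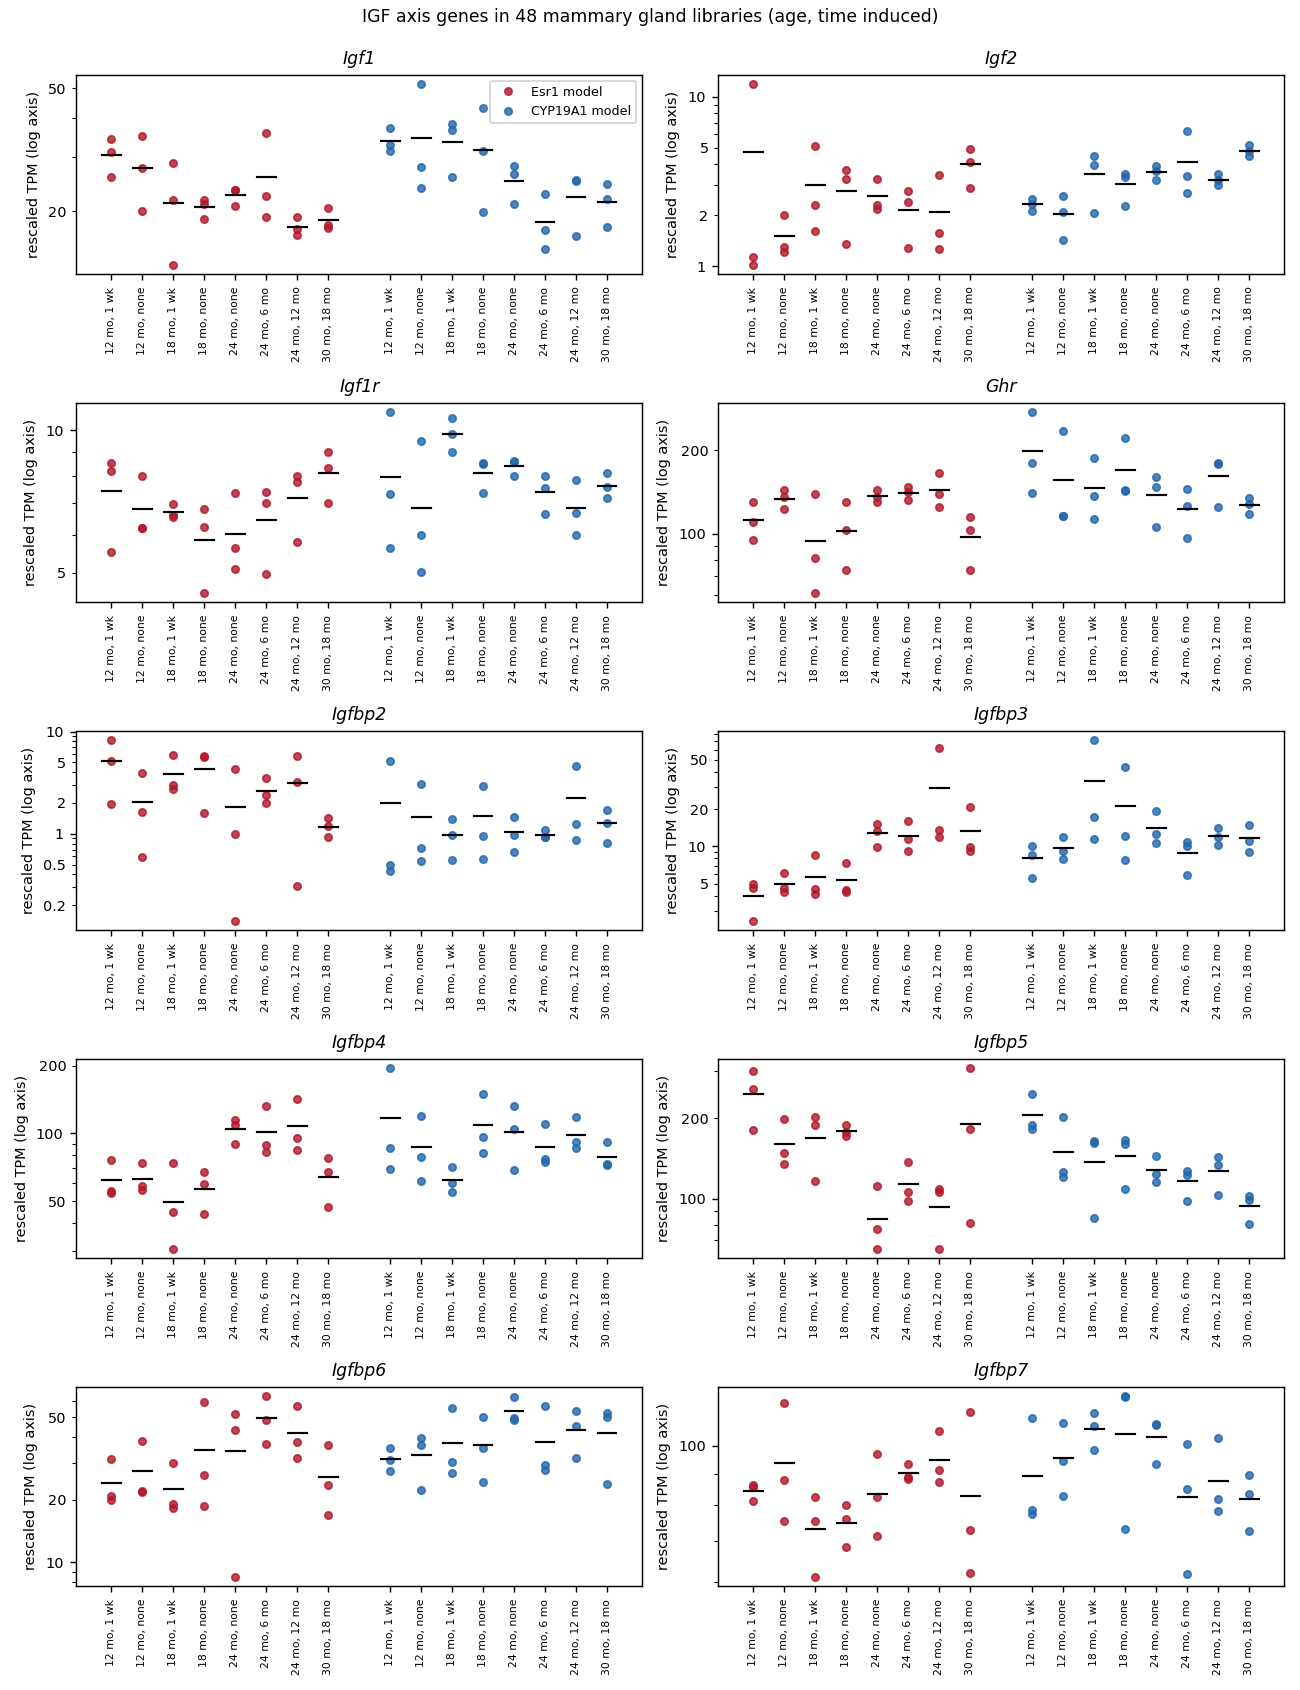
Rescaled TPM (log axis) of the 10 members in the 48 libraries, 1 panel a gene. Points are libraries, bars are means of 3, Esr1 mice are red on the left and CYP19A1 mice blue on the right, and labels give age and time induced in months (mo) or weeks (wk). Igfbp3 of Esr1 mice sits between 2.51 and 8.49 at 12 and 18 months and between 9.18 and 62.3 at 24 and 30 months, and single libraries stand far above their groups for Igfbp3 and Igf2.

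Promoters are shown for Igf1, Ghr and Igfbp4, the members that varied together most closely among libraries of a group. Each window holds 250 bases before and 50 after a RefSeq transcript start (GRCm38.p6) and is written 5′ to 3′ on the strand of its gene: Igf1 at chr10:87860861-87861160 (plus), Ghr at chr15:3581793-3582092 (minus) and Igfbp4 at chr11:99040994-99041293 (plus). Capitals mark the estrogen receptor half-site AGGTCA and the TATA box TATAAA, searched on both strands at any position, so TTTATA is TATAAA read from the other strand.
Igf1: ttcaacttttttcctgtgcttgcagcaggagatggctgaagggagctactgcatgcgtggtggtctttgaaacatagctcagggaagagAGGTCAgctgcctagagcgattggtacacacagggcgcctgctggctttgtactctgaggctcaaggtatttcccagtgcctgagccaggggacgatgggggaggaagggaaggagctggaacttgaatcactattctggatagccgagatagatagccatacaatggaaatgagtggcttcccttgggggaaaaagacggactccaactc
Ghr: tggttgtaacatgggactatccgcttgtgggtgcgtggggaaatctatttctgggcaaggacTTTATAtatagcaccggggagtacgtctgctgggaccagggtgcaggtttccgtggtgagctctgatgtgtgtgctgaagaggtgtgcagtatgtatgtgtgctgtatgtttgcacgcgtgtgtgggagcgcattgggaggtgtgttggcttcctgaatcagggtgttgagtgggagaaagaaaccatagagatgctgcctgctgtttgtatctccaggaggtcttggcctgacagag
Igfbp4: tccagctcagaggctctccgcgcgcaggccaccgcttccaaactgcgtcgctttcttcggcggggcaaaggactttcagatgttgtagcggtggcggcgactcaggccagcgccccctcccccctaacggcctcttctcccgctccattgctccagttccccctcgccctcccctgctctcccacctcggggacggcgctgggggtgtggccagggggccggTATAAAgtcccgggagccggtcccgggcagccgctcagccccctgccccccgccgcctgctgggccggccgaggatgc
The half-site was found in the Igf1 window and the TATA box in the other pair shown, in that of Ghr on the opposite strand. Ghr has another window (chr15:3583303-3583602, minus), not shown, without a TATA box. RefSeq has 15 such windows for the 10 members. The half-site was in 3 of the 15 (Igf1, Igf1r and Igf2), against 16.3% of 32851 windows of all genes. The TATA box was in 3 of the 15 (Ghr, Igfbp4 and Igfbp6), against 13.6%. The full estrogen response element (GGTCA and its reverse complement TGACC with 3 bases between) was in 0 of the 15, against 0.07%, and the STAT motif TTCNNNGAA in 0 of the 15, against 8.3%. A match or its lack describes these letters in these windows and is no evidence on binding.

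The induction comparisons set glands labelled as induced against uninduced ones. Expression of the responder is not shown by these values. Esr1 did not pass in Esr1 mice, and the mouse gene Cyp19a1 was at most 0.29 TPM as deposited in any library. Whether the Cyp19a1 row counts the CYP19A1 transgene is unknown. A lack of response and a lack of responder expression therefore cannot be told apart. No member passed in any of the 8 inductions. Over the 80 tests of a member the smallest limma adjusted p was 0.577, and 1 of the 80 had an unadjusted p under 0.05. Among all 20209 genes tested, 0% passed in each induction, except for 3 genes (0.0148%) after 12 months in CYP19A1 mice. The difference between the models in the response to 1 week passed for 0 of the 10 members and 0% of all genes. Unadjusted p-values under 0.05 numbered between 341 and 1784 genes in an induction.

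The ligand Igf1 had 31.2, 25.8 and 34.3 in the glands of Esr1 mice induced for 1 week at 12 months, against 27.7, 34.9 and 20.0 in uninduced ones. In CYP19A1 mice of that age it had 32.8, 31.3 and 37.3 after 1 week, against 51.7, 23.7 and 27.8 uninduced. Each pair of groups overlaps. The CYP19A1 values were strongly rescaled. Ribosomal RNA took 43.7%, 49.8% and 36.7% of TPM in the induced CYP19A1 libraries of 12 months. In the uninduced ones it took 67.2%, 0.122% and 22.2%. In TPM as deposited Igf1 had 18.38, 15.64 and 28.17 in the induced libraries, against 16.28, 33.21 and 31.98 uninduced, which also overlap. Igf1r in CYP19A1 mice of 18 months had 9.81, 9 and 10.6 after 1 week, against 8.5, 8.49 and 7.36 uninduced, with no overlap. That difference of 0.25 on the log2 scale had an SE of 0.18 and an unadjusted p of 0.191 (limma). After 12 months of induction Igf1 was apart in Esr1 mice, with 17.5, 19.1 and 16.8 in induced glands, against 23.4, 20.8 and 23.4 in uninduced ones of the same age. Igf1r was apart in CYP19A1 mice after 12 months, with 6, 6.67 and 7.85 induced, against 8.55, 7.98 and 8.62 uninduced. These were 1 of 10 members each, against 5% and 7.4% of all genes, and neither had an unadjusted p under 0.05. In TPM as deposited both of these pairs of groups overlap. There Igf1 had 18.94, 21.02 and 18.76 induced, against 20.68, 25.21 and 23.28 uninduced. Igf1r had 7.89, 6.87 and 9.48 induced, against 8.86, 9.39 and 8.32 uninduced. The Igf1r groups of 18 months also overlap as deposited (9.58, 8.95 and 12.74, against 5.95, 8.72 and 9.39).

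Igfbp4 in CYP19A1 mice of 18 months had 54.8, 71.3 and 60.4 after 1 week, against 149, 81.9 and 96.8 uninduced. The groups do not overlap, and the log2 difference was -0.77 ± 0.32 (SE), with an unadjusted p of 0.0209 and a limma adjusted p of 1. Groups did not overlap in 8.94% of all genes in that comparison, and did not in 2 of the 10 members. In Esr1 mice of 18 months Igfbp4 had 74.0, 44.9 and 30.6 after 1 week, against 59.5, 43.7 and 67.4 uninduced. White adipocyte markers in the CYP19A1 mice of 18 months summed to 2564 to 3655 (median 2848) after 1 week, against 3030 to 6089 (median 3242) uninduced, with 0 of 7 passing, and their part in the Igfbp4 difference was not tested.

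Igfbp5 in Esr1 mice of 12 months had 180, 299.5 and 257 after 1 week, against 198, 135 and 148 uninduced, which overlap in a single pair of libraries. Igf2 had 1.14, 11.96 and 1.02 in the Esr1 glands of 12 months induced for 1 week, so 1 library carries the mean of that group, against 2.01, 1.21 and 1.3 in uninduced glands.

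Averaged over the 4 inductions of a model, intervals show what size could have been missed. In Esr1 mice the mean log2 change ran from -0.08 (Ghr and Igfbp4) to 0.54 (Igfbp2, 95% interval -0.11 to 1.19). In CYP19A1 mice it ran from -0.22 (Igfbp6) to 0.09 (Igfbp2). Igf1 differed by -0.01 (-0.31 to 0.29) in Esr1 mice and by -0.11 (-0.41 to 0.19) in CYP19A1 mice. The median over the 10 members was 0.08 in Esr1 mice and -0.05 in CYP19A1 mice, beside 0.005 and 0.006 over all genes. For 3 against 3 libraries, the half-width of the 95% interval was 0.37 for Igf1r, 0.40 for Igfbp7 and 0.53 for Igf1, but 1.05 for Igfbp3 and 1.17 for Igfbp2. Of the 80 intervals, 51 lay within a log2 change of 1 in either direction.

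**Figure D2:**
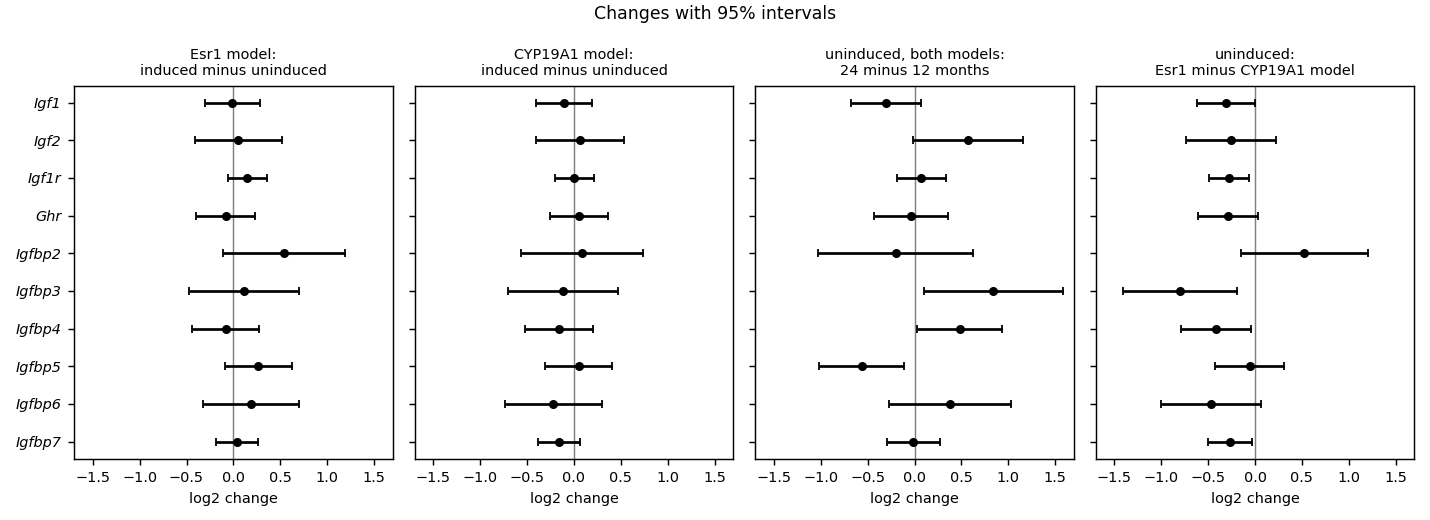
Log2 change of each member (x axis) with its 95% interval from the limma fit in 4 comparisons: induced minus uninduced glands of Esr1 mice and of CYP19A1 mice (mean of 4 inductions each), 24 minus 12 months in uninduced glands of both models, and Esr1 minus CYP19A1 mice in uninduced glands. Every induction interval covers 0, whereas those of Igfbp3, Igfbp4 and Igfbp5 leave it out for age.

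Age was compared among uninduced glands, 24 against 12 months. The widest differences were in 3 binding proteins of Esr1 mice. Igfbp3 had 9.94, 15.03 and 13.4 at 24 months, against 4.62, 6.10 and 4.29 at 12 months (means of 12.8 and 5.003, with SD of 2.60 and 0.96, n = 3 each). Every older library was above every younger one, and the difference was 1.19 ± 0.52 (SE) on the log2 scale.

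Igfbp4 had 109, 115 and 89.7 in Esr1 mice of 24 months, against 55.9, 73.7 and 58.3 at 12 months, again with no overlap (0.73 ± 0.32, SE, log2). In TPM as deposited these Igfbp4 groups overlap (96.3, 139 and 89.2, against 50.8, 101 and 59.6). The difference there was 0.645, with an unadjusted p of 0.131 (limma). Igfbp5 ran the other way, with 64.9, 76.9 and 111 at 24 months, against 198, 135 and 148 at 12 months, a log2 difference of -0.94 ± 0.32 (SE). Igf2 was also apart, with 2.30, 3.28 and 2.18 at 24 months, against 2.01, 1.21 and 1.3 at 12 months.

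Over all genes none of these passed. The limma adjusted p was 0.117 for Igfbp5 and 0.246 for Igfbp3 and Igfbp4, so 0 of the 10 members passed, against 1.85% of all genes. Those 3 had an unadjusted p under 0.05, as did 3172 of all 20209 genes. Groups did not overlap in 4 of the 10 members, against 16.6% of all genes. At 18 months the Esr1 libraries were still near those of 12 months, with Igfbp3 at 4.32, 4.48 and 7.35 and Igfbp5 at 178, 172 and 189.

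In CYP19A1 mice the same 3 genes differed by 0.49 (Igfbp3), 0.23 (Igfbp4) and -0.19 (Igfbp5) on the log2 scale, with the signs seen in Esr1 mice, though Igfbp5 took the other sign (0.21) in TPM as deposited. Igfbp3 had 19.3, 12.7 and 10.6 at 24 months, against 9.15, 7.87 and 11.9 at 12 months, which overlap. Igfbp5 had 115.5, 123.5 and 145 at 24 months, against 126, 203 and 121 at 12 months, which also overlap. In CYP19A1 mice 2 of the 10 members did not overlap between these ages, Igf2 and Igfbp6, against 18.3% of all genes. In the limma fit 0 of the 10 passed, against 0.341% of all genes. An unadjusted p under 0.05 was found for 0 of the 10, against 3570 of all 20209 genes. Igfbp6 had 48.6, 62.8 and 49.4 at 24 months, against 39.7, 36.8 and 22.3 at 12 months. As deposited these overlap (50.4, 74.0 and 47.6, against 12.5, 51.5 and 25.6). Ribosomal RNA took 67.2% and 22.2% of TPM in replicates 1 and 3 of 12 months, and 15.6% in replicate 3 of 24 months. For Igf2 the levels were 3.66, 3.25 and 3.90 at 24 months, against 2.60, 2.09 and 1.42 at 12 months.

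With both models together the log2 differences between 24 and 12 months were 0.84 ± 0.36 for Igfbp3, 0.48 ± 0.22 for Igfbp4, 0.57 ± 0.29 for Igf2 and -0.57 ± 0.22 for Igfbp5 (SE), with limma adjusted p from 0.0975 (Igfbp5) to 0.201 (Igf2). In this comparison 0 of the 10 members passed, against 9.23% of all genes. An unadjusted limma p under 0.05 was found for 3 of the 10 and for 5484 of all 20209 genes. Ghr (-0.04), Igf1r (0.07) and Igfbp7 (-0.02) lay near 0, and all 3 take the other sign under another scaling. Igfbp3 passed (adjusted p = 0.0443) when only the groups compared were fitted, and Igfbp5 passed (adjusted p = 0.0464) without replicate 3 of the uninduced Esr1 mice of 24 months. Sample names are built differently for glands of 24 and 30 months than for those of 12 and 18 months, so a batch along that line and age cannot be told apart. The difference between the models in the age effect passed for 0 of the 10 members, against 0.099% of all genes. An unadjusted p under 0.05 was found for 0 of the 10, against 990 of all 20209 genes (limma). Markers moved too: the 5 B cell markers all passed as higher (sum of 2.93 to 57.9 at 24 months, against 1.62 to 3.74 at 12 months), and 7 luminal markers summed to a median of 237 at 24 months, against 419 at 12 months, with 0 of 7 passing. Of 7 skeletal muscle markers 2 passed as higher (sum with a median of 19550 at 24 months, against 6454 at 12 months). Their part in the member values was not tested.

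The oldest glands, induced for 18 months at 30 months, were set against those induced for 12 months at 24 months. In Esr1 mice Ghr had 73.7, 103 and 114 at 30 months, against 166, 139 and 125 at 24 months, with no overlap. Igfbp4 had 47.4, 67.7 and 77.5 at 30 months, against 142, 95.2 and 84.6 at 24 months, also apart. Igfbp5 had 308, 81.1 and 182 at 30 months, against 65.2, 106 and 109 at 24 months, a log2 difference of 0.86 ± 0.32 (SE) in groups that overlap.

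The limma adjusted p was 0.276 for Igfbp5, 0.383 for Igfbp4 and 0.439 for Ghr, so 0 of 10 passed, against 0.114% of all genes. These 3 had an unadjusted p under 0.05, as did 2247 of all 20209 genes. In TPM as deposited the log2 differences were 0.34 (Igfbp5), -1.24 (Igfbp4) and -1.08 (Ghr). In all, 2 members did not overlap, Ghr and Igfbp4, against 17.7% of all genes. Replicate 3 of the Esr1 glands of 30 months (Ghr 114, Igfbp4 77.5 and Igfbp5 182) is 50.3% ribosomal RNA. White adipocyte markers summed to 1314 to 2561 in the Esr1 glands of 30 months, against 3265 to 5532 at 24 months, with 1 of 7 passing as lower. Skeletal muscle markers summed to 23629 to 30975 at 30 months, against 7345 to 19471 at 24 months, with 0 of 7 passing. The 8 fibroblast markers summed to 454 to 589 at 30 months, against 857 to 944 at 24 months, and 0 of 8 passed. Their part in these differences was not tested. In CYP19A1 mice Ghr had 118, 135 and 128 at 30 months, against 179, 180 and 125 at 24 months, and Igfbp5 had 99.1, 80.3 and 103 at 30 months, against 103, 134 and 143 at 24 months. There 2 members did not overlap, Igfbp5 and Igf2 (4.47, 5.19 and 4.78 at 30 months, against 3.5, 3.25 and 3 at 24 months), against 10.9% of all genes. In TPM as deposited the Igf2 groups overlap (4.34, 5.12 and 4.68, against 4.61, 3.35 and 3.63). In the limma fit 0 of 10 passed or had an unadjusted p under 0.05, against 449 of all 20209 genes with such a p.

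The models were compared with each other in uninduced glands, which differ in transgene and possibly in line background. The log2 difference was below 0 in 9 of the 10 members, Igfbp5 only until TPM were taken as deposited, with a median of -0.28, beside 0.001 over all genes. Igfbp3 ran from 4.29 through a median of 6.10 to 15.03 in 9 uninduced libraries of Esr1 mice, against 7.73, 11.9 and 43.3 in 9 of CYP19A1 mice, a difference of -0.80 ± 0.30 (SE) with a limma adjusted p of 0.0598. Igf1r ran from 4.53 through 6.21 to 7.98 in Esr1 mice, against 5.02, 8.49 and 9.49 in CYP19A1 mice (-0.28 ± 0.11, adjusted p = 0.0694). All 9 CYP19A1 libraries were above the Esr1 median for Igfbp3 and most were for Igf1r, but the ranges overlap for both genes.

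Igfbp7 differed by -0.27 ± 0.11, Igfbp4 by -0.42 ± 0.18 and Igf1 by -0.31 ± 0.15 (SE), with limma adjusted p of 0.103, 0.115 and 0.156. Igfbp2 had the other sign, with a median of 1.65 in Esr1 mice and 0.95 in CYP19A1 mice (0.53 ± 0.33). In this comparison 0 of the 10 members passed, against 16.7% of all genes. An unadjusted limma p under 0.05 was found for 5 of the 10 and for 6204 of all 20209 genes. Dividing each library by its protein-coding sum instead made 6 members pass (Igf1, Igf1r, Ghr, Igfbp3, Igfbp4 and Igfbp7), all lower in Esr1 mice. In that setting 541 of all 20209 genes passed as higher and 3468 as lower, and the median of all genes moved to -0.12. In TPM as deposited 0 of the 6 passed, with differences of -0.14 (Igf1), -0.15 (Igf1r), -0.11 (Ghr), -0.66 (Igfbp3), -0.24 (Igfbp4) and -0.10 (Igfbp7). Igfbp5 differed by -0.06, and by 0.11 in TPM as deposited. Without the libraries above 10% ribosomal RNA, Igf1r passed (-0.41, adjusted p = 0.00859). Endothelial markers passed as lower in 5 of 6 (sum with a median of 105 in Esr1 mice and 139 in CYP19A1 mice) and white adipocyte markers in 2 of 7, and their part in the member differences was not tested.

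In long-induced glands the same contrast gave values near 0 for most members: Igf1 differed by -0.01, Igfbp4 by -0.003 and Ghr by -0.12, and Igf2 by -0.48 ± 0.24 (SE). Igfbp3 differed by 0.45 ± 0.30 (SE), the other sign from uninduced glands. Here 0 of the 10 passed, against 9.73% of all genes. An unadjusted limma p under 0.05 was found for 0 of the 10 and for 4967 of all 20209 genes. The difference between the models in the response to long induction passed for 0 of 10, against 0% of all genes. Igfbp6 (1.13) had an unadjusted limma p of 0.0495, and 465 of all 20209 genes were under 0.05.

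Between the models Igfbp3 passed within 1 stratum of age and induction, in a set of 8 comparisons added after the data were seen. At 18 months with 1 week of induction it had 4.12, 4.54 and 8.49 in Esr1 mice, against 11.5, 17.4 and 72.1 in CYP19A1 mice, with no overlap and 1 CYP19A1 library far above the rest. The log2 difference was -1.99 ± 0.52 (SE), limma adjusted p = 0.0185, in a stratum where 6.4% of all genes passed. Over the alternatives its adjusted p ran from 0.00763 to 0.152. It was -1.23 (adjusted p = 0.152) without that library, replicate 3 of the CYP19A1 mice, -1.88 (adjusted p = 0.0811) without replicate 2 of the Esr1 mice, -1.83 (adjusted p = 0.0923) in TPM as deposited and -1.99 (adjusted p = 0.15) when the 2 groups were fitted alone. Uninduced at 18 months, Igfbp3 had 4.32, 4.48 and 7.35 in Esr1 mice, against 43.3, 7.73 and 12.1 in CYP19A1 mice (-1.46, adjusted p = 0.066). In the other 7 strata 0 of 10 members passed in the limma fit, against 1.49%, 8.92% and 1.44% of all genes in uninduced glands of 12, 18 and 24 months, 5.98% at 12 months with 1 week, 1.96% and 1.45% at 24 months with 6 and 12 months, and 1.36% at 30 months. Among them the lowest adjusted p was that of Igfbp4 in uninduced glands of 18 months, 0.0633 (-0.91).

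Of all 48 libraries, Igfbp3 was highest in 3. It reached 62.3 in replicate 1 of the Esr1 mice of 24 months induced for 12 months, 43.3 in replicate 1 of the uninduced CYP19A1 mice of 18 months and 72.1 in replicate 3 of the CYP19A1 mice of 18 months induced for 1 week. All other libraries were at 20.8 or lower. In each of those 3 libraries Igfbp5 was the lowest of its group, at 65.2, 109 and 85.1.

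Across the 16 groups as a whole, an F test added after the data were seen found differences in 4 of the 10 members, against 37.4% of all genes. They were Igfbp5 (limma adjusted p = 0.00667), Igfbp3 (0.00689), Igfbp4 (0.0165) and Igf1 (0.0255), and Ghr missed it at 0.0557. Group means of Igfbp5 ran from 84.3 in uninduced Esr1 mice of 24 months to 246 in Esr1 mice induced for 1 week at 12 months. Those of Igf1 ran from 17.8 in Esr1 mice of 24 months induced for 12 months to 34.4 in uninduced CYP19A1 mice of 12 months. That highest mean rests on 51.7 in replicate 1, against 23.7 and 27.8 in the other libraries. Replicate 1 was 67.2% ribosomal RNA and had 16.3 in TPM as deposited. In TPM as deposited that group averaged 27.2, and Esr1 mice induced for 1 week at 12 months were highest at 40.5.

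Within groups, several members varied together. Levels were set against their group means and the 45 pairs of members compared over the 48 libraries, with p from 100000 permutations of libraries within groups. Of the 45 pairs, 6 passed with Pearson and with Spearman, and all 6 were positive and lay among Igf1, Ghr, Igfbp4 and Igfbp7. The growth hormone receptor and Igfbp4 were closest, with r = 0.84 and rho = 0.81 (adjusted p = 0.000225 for each, from the smallest p that these permutations give, 1e-05). Without the 2 libraries farthest from the median of Ghr, r was 0.81.

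Igf1 went with Ghr at r = 0.73 (rho = 0.72, adjusted p = 0.000225 for each, r = 0.70 without the 2 farthest libraries). Igf1 and Igfbp4 had r = 0.69 (rho = 0.67, adjusted p = 0.0003 and 0.00045, r = 0.65 without 2). The pairs with Igfbp7 were weaker, at r = 0.60 with Igfbp4 (rho = 0.62), 0.57 with Igf1 (rho = 0.62) and 0.51 with Ghr (rho = 0.54), with adjusted p at most 0.0198 and r without the 2 farthest libraries of 0.55, 0.51 and 0.48. Within the 24 libraries of 12 and 18 months r was 0.89 for Ghr and Igfbp4, 0.81 for Igf1 and Ghr and 0.74 for Igf1 and Igfbp4, and within the 24 of 24 and 30 months it was 0.73, 0.52 and 0.58. For the pairs with Igfbp7 it was 0.62 to 0.79 in the younger and 0.35 to 0.36 in the older libraries. Without the 9 libraries above 10% ribosomal RNA 2 of the 45 pairs passed, and r was 0.75 for Ghr and Igfbp4, 0.63 for Igf1 and Ghr and 0.66 for Igf1 and Igfbp4. The 2 were Ghr with Igfbp4 and Igf1 with Ghr, and the other 4 of the 6 lost the call, with r for Igfbp7 of 0.43 with Igfbp4, 0.55 with Igf1 and 0.30 with Ghr. Igfbp3 and Igfbp5 had r = -0.45 (rho = -0.46), which did not pass (adjusted p = 0.104 and 0.0713), and r = -0.33 without the 2 farthest libraries.

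**Figure D3:**
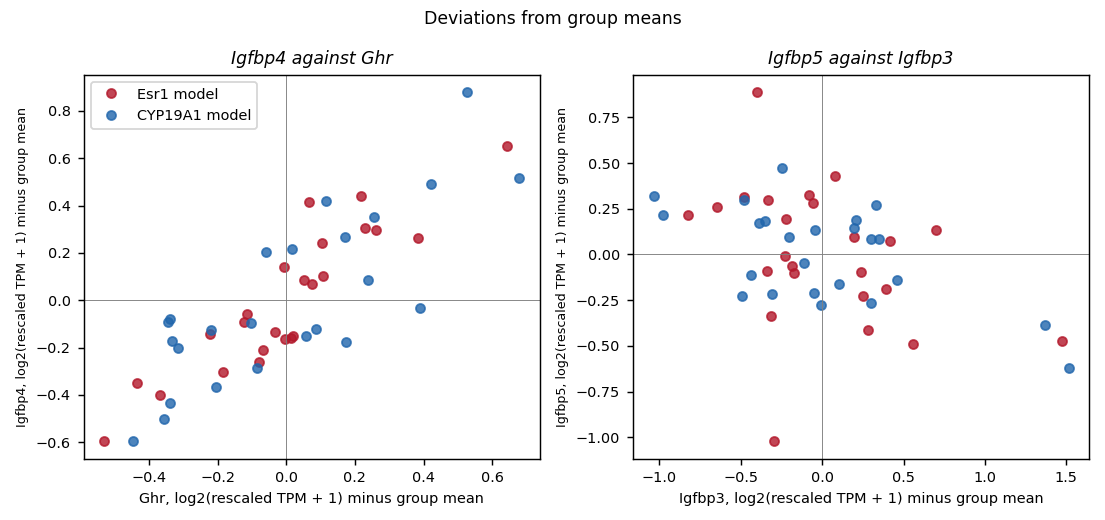
Deviation of each library from its group mean, in log2(rescaled TPM + 1), for Igfbp4 (y axis) against Ghr (x axis) on the left and Igfbp5 (y axis) against Igfbp3 (x axis) on the right, with 48 libraries (Esr1 mice red, CYP19A1 mice blue). Ghr and Igfbp4 run along a rising line in both models (r = 0.84), and on the right the 3 libraries highest in Igfbp3 have low Igfbp5 (r = -0.45).

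These members also went with cell type markers. The relations of the 10 members with 8 marker list scores, 80 in all, were added after the data were seen, and 15 passed both tests (12 positive and 3 negative). Ghr had r = 0.89 with the white adipocyte score (rho = 0.87, adjusted p = 0.000267 and 0.0004, r = 0.88 without the 2 farthest libraries), 0.93 within 12 and 18 months and 0.82 within 24 and 30 months. Igfbp4 had r = 0.88 with the same score (rho = 0.85, adjusted p = 0.000267 and 0.0004, r = 0.86 without 2), 0.90 and 0.86 within the same age classes. Igf1 had r = 0.71 (rho = 0.71, adjusted p = 0.0004 for each, r = 0.69 without 2).

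With the luminal epithelial score Ghr had r = -0.71 (rho = -0.73) and Igfbp4 r = -0.66 (rho = -0.66), with adjusted p at most 0.00096 and r of -0.66 and -0.61 without the 2 farthest libraries, whereas Igfbp5 had r = 0.38 (rho = 0.45, adjusted p = 0.0416 and 0.0299). That value for Igfbp5 was 0.22 within 12 and 18 months and 0.53 within 24 and 30 months, and 0.43 without the 2 farthest libraries. Igfbp6 and Igfbp7 went with the fibroblast score at r = 0.59 and 0.60 (rho = 0.62 and 0.63, adjusted p = 0.0019 each for r, and r of 0.58 and 0.67 without 2). Igfbp4 and Igfbp7 also went with the endothelial score at r = 0.64 and 0.57 (rho = 0.69 and 0.52, r = 0.57 and 0.48 without 2), and Igfbp7 with the macrophage score at r = 0.51 (rho = 0.52, r = 0.49 without 2). Igfbp2 went with the basal epithelial score at r = 0.50 (rho = 0.47, adjusted p = 0.0241 and 0.0269, r = 0.41 without 2). The remaining 3 were Ghr with the basal epithelial score (r = -0.43, rho = -0.49), Igfbp4 with the fibroblast score (r = 0.49, rho = 0.49) and Igfbp7 with the white adipocyte score (r = 0.50, rho = 0.51). The ligand Igf2, the receptor Igf1r and Igfbp3 had no relation past both tests.

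**Figure D4:**
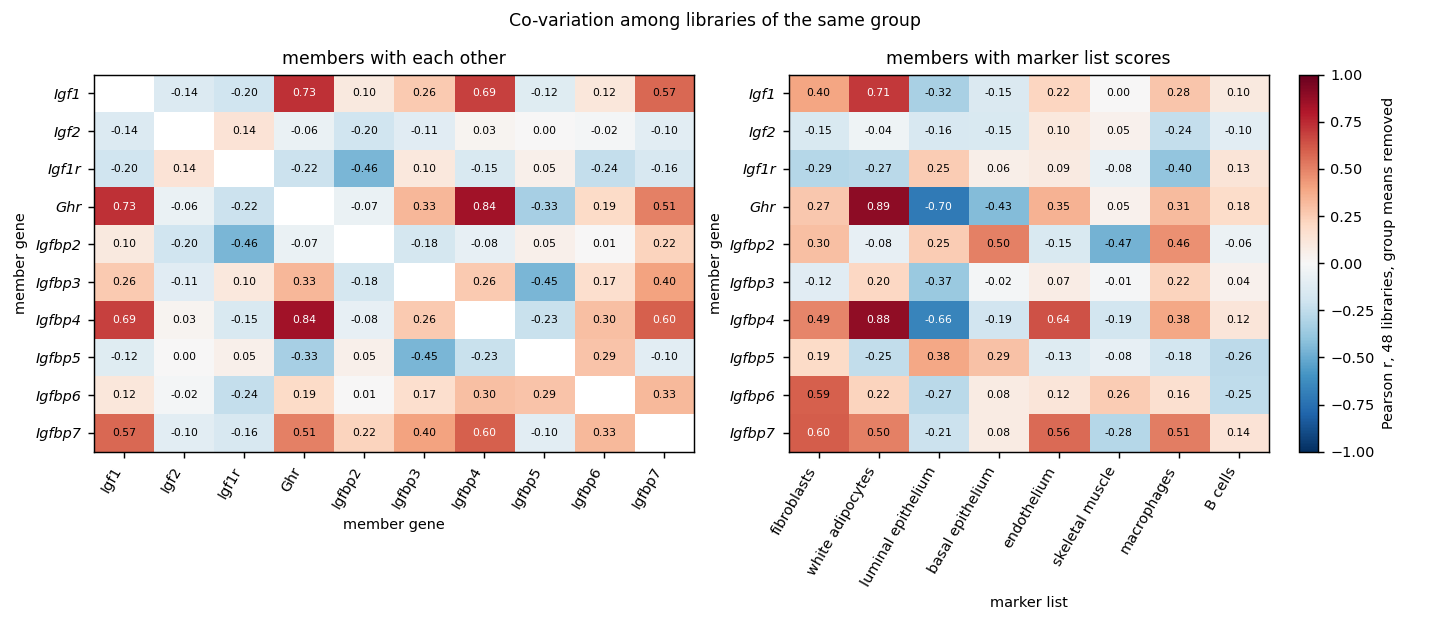
Pearson r over 48 libraries after group means were removed, for pairs of members (left) and for members (rows) with 8 marker list scores (right), with red positive and blue negative. Ghr, Igfbp4 and Igf1 share the block of high values with each other (0.69 to 0.84) and with white adipocyte markers (0.71 to 0.89).

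The genes most alike to each member across the 48 libraries were ranked by Spearman rho, with group differences kept in. For Ghr they were Dram1 (0.87), Adipoq (0.87), which encodes the adipocyte hormone adiponectin, and Abcd2 (0.85). For Igfbp4 they were Gsn (0.94), Sptbn1 (0.93) and Cav1 (0.92), the last encoding the main protein of caveolae. Igfbp6 was most like Gpc3 (0.91), Cd34 and Lrrn4cl (0.90 each), and Cd34 marks stromal and vascular progenitors.

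Igfbp5 was most like Tgfb3 (0.77), Btn1a1 (0.75), which encodes a milk fat globule protein, and Ceacam10 (0.72). Igfbp2 was most like the histone genes Hist2h2bb (0.86), Hist1h1e (0.83) and Hist1h2ab (0.82). Igf1 was nearest to Arsb (0.75), Nucb1 (0.74) and Acp5 (0.69), Igf2 to Tead4 (0.70), Nr3c2 (0.69) and Trip10 (0.66), and Igf1r to Gabbr1 (0.78), Letm2 (0.76) and Mapk8ip3 (0.75). Igfbp3 was nearest to Nbl1 (0.73), Peg3 (0.73) and Man1a (0.72), and Igfbp7 to Plpp3 (0.71), Dpep1 (0.71) and Ifi211 (0.71). These ranks describe the 48 libraries and were not tested.

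Of the other genes of the pathway, 38 were high enough to test, and 0 passed in any induction in the limma fit, with an unadjusted p under 0.05 in 10 of 304 tests. All genes passed at 0% in both means over the 4 inductions. Between uninduced glands of the models 2 of the 38 were higher and 7 lower in Esr1 mice, against 7.99% and 8.68% of all genes. The clearest was Stc2, which encodes a stanniocalcin that inhibits PAPP-A. It ran from 4.09 through a median of 4.85 to 7.51 in uninduced Esr1 mice, against 7.55, 13.2 and 23.0 in CYP19A1 mice, with no overlap between 9 and 9 libraries (-1.23 ± 0.20, SE, log2, limma adjusted p = 6.07e-05). In long-induced glands Stc2 ran from 3.86 through 4.82 to 10.7 in Esr1 mice, against 8.47, 11.4 and 17.5 in CYP19A1 mice (-1.01 ± 0.20, adjusted p = 0.000916). Both calls held under every alternative run.

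Igfals, which encodes the subunit that joins IGF and IGFBP3 in a large serum complex, was higher in Esr1 mice. In long-induced glands it ran from 5.80 through 21.4 to 32.4 in Esr1 mice, against 3.19, 6.39 and 10.8 in CYP19A1 mice (1.31 ± 0.27, SE, log2, limma adjusted p = 0.00108). In uninduced glands it ran from 7.25 through 12.1 to 43.4 in Esr1 mice, against 5.38, 7.74 and 14.4 in CYP19A1 mice (0.82 ± 0.27, adjusted p = 0.0322). The uninduced call was lost in 8 of the 18 fits that leave out 1 library.

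Among receptors, 2 of 3 tested were lower in uninduced Esr1 mice, Lrp1 (-0.49 ± 0.13, SE), an endocytic receptor, and Insr (-0.36 ± 0.12), the insulin receptor, whose call was lost in 12 of 18 such fits. Among 7 genes of growth hormone signalling, Jak2 alone passed there (0.20 ± 0.06, higher). Of the signal relay genes, Grb10 (-0.44), Pik3r2 (-0.30) and Foxo1 (-0.28) were lower and 0 were higher. The calls of Grb10 and Foxo1 were lost in 4 and 5 of the 18 fits. Over the 8 processing alternatives the Jak2 call was lost in 4 and the uninduced Igfals call in 5. Of the 18 pathway calls in the comparisons of models and ages, 14 were lost in TPM as deposited, 9 when the compared groups were fitted alone and 9 without the libraries above 10% ribosomal RNA.

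In long-induced glands 3 of the 38 were higher and 3 lower in Esr1 mice, against 5.15% and 4.59% of all genes. Besides Igfals and Stc2 these were Irs2 (0.71 ± 0.14, SE) and Foxo3 (0.41 ± 0.10), which were higher, and Irs1 (-0.43 ± 0.14) and Socs1 (-0.28 ± 0.08), which were lower. Irs1 and Irs2 encode the receptor's main adaptors. The Irs1 call was lost in 12 of 18 fits and the Socs1 call in 1. Socs1 was scarce, with a mean of 0.56 over all libraries (0.27 to 1.67).

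Between 24 and 12 months, 2 of the 38 were higher and 1 lower, against 4.44% and 4.78% of all genes. Socs3, a feedback inhibitor of cytokine receptors, ran from 3.98 through 5.60 to 10.2 in 6 uninduced libraries of 24 months, against 2.45, 3.53 and 4.73 at 12 months (0.60 ± 0.17, SE, log2, limma adjusted p = 0.0257), and its call was lost in 4 of 12 fits. Grb14, an adaptor that inhibits the insulin receptor, was higher (0.97 ± 0.31, adjusted p = 0.0454), and its call was lost in 8 of 12. Pik3cb, a catalytic PI3 kinase subunit, ran from 3.47 through 4.44 to 5.01 at 24 months, against 4.82, 6.24 and 9.03 at 12 months (-0.48 ± 0.11, adjusted p = 0.00644). Each of these 3 calls was also lost in 3 of the 8 processing alternatives.

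Of 3 tested partners of Igf2, 0 passed in these comparisons. The imprinted noncoding neighbour H19 averaged 68.5 and ran from 1.18 to 428, and Igf2bp3, encoding an RNA-binding protein, averaged 1.79 (0.98 to 3.35). H19 differed by 1.55 ± 0.77 (SE, log2) between 24 and 12 months, with a limma adjusted p of 0.19, beside 0.57 for Igf2. Insrr, Igfbp1, Igfbpl1, Irs4 and Igf2bp1 were too low to test.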

How the data were processed

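The deposited table holds TPM per gene, made by the authors; RSEM 1.3.1 and STAR 2.7.9a are named in the submitters' processing notes, with FastQC 0.11.9, Trim Galore 0.6.5 and the build mm10. Per the labels' protocols, ribosomal RNA was depleted from total RNA and stranded libraries were sequenced from 1 end (75 bp reads, 50 M or more per library). TPM keep no library size, so depth beyond that minimum is unknown. Of the gene identifiers, 55094 of 55487 matched GENCODE M21 with their version.

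Each library was divided by its median-of-ratios factor over 14802 nuclear protein-coding genes above 0 TPM in every library. A single limma 3.58.1 fit (R 4.3.3, intensity trend, two-sided) of 16 group means took log2(rescaled TPM + 1) of the 20209 genes that reached 1 TPM in 3 or more libraries. Benjamini-Hochberg adjustment ran over all genes within each of 22 comparisons, and a gene passed under 0.05. Folds are on the log2(TPM + 1) scale and understate changes of scarce genes. The script was tested on simulated data. Members and lists were chosen with earlier results of these data known. Named genes were all members, the 3 most alike to each by Spearman rho, and, per pathway list, up to 4 of those passing (by size of change), failing which the 2 with the highest level; 1 gene that the rule names is not reported here. The F test, the differences within strata, the marker relations and the r values by age class were added after seeing the data. Alternatives were TPM as deposited, a protein-coding sum, a pseudocount of 0.1, filters of 0 and 5 TPM, fits of compared groups alone, a replicate block, and leaving out libraries.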

Additional observations from a re-analysis of the deposited data

How the results depend on the processing

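No member passed in the 22 comparisons under any of the 8 alternatives or with any 1 library left out, except as follows. For 24 against 12 months in both models the count of members that passed was 1 when the compared groups were fitted alone, and leaving out 1 library gave 0 to 1. Between uninduced models it was 6 with the protein-coding sum and 1 without the libraries above 10% ribosomal RNA, and leaving out 1 library gave 0 to 2: Igf1r and Igfbp3 without replicate 3 of the uninduced Esr1 mice of 18 months, Igf1r without replicate 1 of the uninduced Esr1 mice of 24 months or of the uninduced CYP19A1 mice of 12 months, and Igfbp3 and Igfbp7 without replicate 2 of the uninduced CYP19A1 mice of 18 months. Within strata the counts were 3 with the protein-coding sum for 18 months uninduced, and 0 to 3 leaving out 1 library. For 12 months with 1 week they were 6 in TPM as deposited, where most of all 20209 genes also passed, and 0 to 2 leaving out 1 library. For 18 months with 1 week they were 0 in TPM as deposited and with the groups fitted alone. In that stratum they were 2 without ribosomal-rich libraries and 0 to 3 with 1 library left out. For 30 months they were 0 to 1 with 1 library left out. Leaving out 1 library, 396 to 2838, 386 to 1730, 305 to 1776 and 167 to 275 of all genes passed in these strata, in that order. For 24 against 12 months in both models such fits passed 732 to 3121 of all genes, and between uninduced models 2124 to 4146. In TPM as deposited the Esr1 minus CYP19A1 difference at 12 months with 1 week changed sign for Igf1 (0.96), Igf1r (0.94), Ghr (0.36), Igfbp4 (0.36) and Igfbp7 (1.08); all 3 CYP19A1 libraries there are above 10% ribosomal RNA, and any other cause was not tested. Member pairs that passed numbered 24 in TPM as deposited and 2 without the ribosomal-rich libraries, against 6.

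Counts of all genes moved more. Between uninduced models 3370 passed (1615 higher, 1755 lower in Esr1 mice), against 596 (398 and 198) in TPM as deposited, 541 higher and 3468 lower with the protein-coding sum, and 1584 fitted alone. Between long-induced models it was 1967, against 839 in TPM as deposited. For 24 against 12 months it was 1865 (898 higher, 967 lower), against 946 (832 and 114) in TPM as deposited, 704 higher and 1075 lower with the protein-coding sum, 258 fitted alone and 1129 without ribosomal-rich libraries. In Esr1 mice it was 373, against 116, 14 and 664 in TPM as deposited, fitted alone and without those libraries, and 651 with no filter on low values. In CYP19A1 mice it was 69, against 857, 12 and 7 in the same settings, and 919 with no filter. With no filter, single inductions called 8 to 648 genes. Within strata TPM as deposited called 105 to 271 genes, and 12516 of the 20209 at 12 months with 1 week, against 275 to 1802. Same-numbered libraries correlated from -0.441 to 0.364 (16 of 42 pairs over 0.1), and in 1 of 14 comparisons, 30 against 24 months in CYP19A1 mice, every library correlated best with its own number. With a replicate block 0 members passed in the 22 comparisons, and 3424 genes passed between uninduced models and 378 between ages in Esr1 mice. Depth cannot be read from TPM, so no floor is given for Igfbp2 and Igf2.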
